A study of Mus musculus with 15 samples.

Results

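Transcript levels of 56 motile cilia and ependymal genes, of 29659 genes listed, were compared in bulk RNA-seq of thalamic tissue. The 56 are the genes whose symbol starts with Cfap, Dnah, Dnaic, Dnai or Rsph and a digit, together with Foxj1, Ccdc153, Tmem212, Dynlrb2, Map3k19 and Ccdc190. They were selected on a measured value, a mean log2 value of 2 or more over the 15 libraries, which 17712 genes reached. None of the 56 candidates fell under that floor, and the genes just inside it were Rsph6a at 3.34, Rsph14 at 3.37 and Cfap58 at 3.46. The mice were 4.5 months old and formed 4 groups, each of which carried 2 copies of a human APOE4 knock-in. The 5EL group (n = 5) also carried the 5xFAD amyloid transgenes with Lilrb4a intact, and the 5ELKO group (n = 4) carried 5xFAD without Lilrb4a. The EL group (n = 3) had Lilrb4a and no 5xFAD, and the ELKO group (n = 3) had neither. Lilrb4a encodes an inhibitory receptor of myeloid cells. The study describes a Lilrb4a knockout line and gives no driver that would restrict the deletion to a cell type, and the 5xFAD transgenes are expressed in neurons, from the Thy1 promoter.

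Motile cilia are whip-like projections built on an axoneme, in which a ring of microtubule doublets surrounds a central pair. Outer and inner dynein arms on the doublets power the beat, and radial spokes link the doublets to the central pair. In the brain these cilia belong to ependymal cells, which line the ventricles and move the cerebrospinal fluid, and in part to the choroid plexus epithelium. The transcription factor FOXJ1 turns on the genes of motile cilia, and RFX factors, which bind X-box motifs, act on many of the same promoters.

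Short sequence words were counted in the promoters of these genes. RefSeq promoter windows of GRCm38.p6, which run from 250 bases before to 50 bases after each start, matched 45 of the 56 genes, and 11 had no entry. The letters GTTGCC, part of the X-box that RFX factors bind, occurred on either strand in 15 of the 45 (33.3%), against 15.2% of 12368 tested genes with a window and 14.1% of all 27025 genes with one. The letters TGTTTA, a forkhead core, occurred on either strand in 9 of the 45 (20%), against 10.8% of the same tested genes and 15.1% of all 27025. Each word was absent from most of the 45, and the shares were not tested. The 250 upstream bases of 4 genes are shown, 5′ to 3′ on the strand of the gene, with the X-box letters (on either strand) or the forkhead core in capitals. Ccdc153 (chr9:44240427-44240676, plus strand), Dynlrb2 (chr8:116504765-116505014, plus strand) and Cfap44 (chr16:44394549-44394798, plus strand) hold the X-box letters, and Tmem212 (chr3:27896369-27896618, minus strand) holds the forkhead core.
Ccdc153: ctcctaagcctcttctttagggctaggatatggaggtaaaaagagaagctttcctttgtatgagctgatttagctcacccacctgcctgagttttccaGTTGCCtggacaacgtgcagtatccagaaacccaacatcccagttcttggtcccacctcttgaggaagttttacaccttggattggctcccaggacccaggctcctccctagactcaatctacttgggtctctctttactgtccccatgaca
Dynlrb2: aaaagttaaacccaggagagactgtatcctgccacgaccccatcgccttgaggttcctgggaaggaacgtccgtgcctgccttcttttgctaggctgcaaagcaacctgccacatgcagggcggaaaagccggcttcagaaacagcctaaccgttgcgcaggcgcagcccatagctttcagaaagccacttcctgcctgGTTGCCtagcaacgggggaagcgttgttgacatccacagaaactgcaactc
Cfap44: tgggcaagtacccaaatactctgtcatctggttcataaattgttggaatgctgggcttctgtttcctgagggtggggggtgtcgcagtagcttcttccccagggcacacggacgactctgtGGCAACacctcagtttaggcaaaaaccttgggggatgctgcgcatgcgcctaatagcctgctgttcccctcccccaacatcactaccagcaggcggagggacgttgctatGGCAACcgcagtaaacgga
Tmem212: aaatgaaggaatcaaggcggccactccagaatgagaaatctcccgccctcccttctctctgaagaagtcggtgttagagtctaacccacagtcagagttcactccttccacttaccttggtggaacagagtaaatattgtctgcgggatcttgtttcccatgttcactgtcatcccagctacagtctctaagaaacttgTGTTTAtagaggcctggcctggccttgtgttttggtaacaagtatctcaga

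In Ccdc153, Dynlrb2 and Cfap44 the letters stand in an inverted repeat, GTTGC and CAAC (or GTTG and GCAAC) with 2 to 5 bases between them. This repeat was searched after the 3 sequences had been read. It occurred in 10 of the 45 promoters (22.2%), those of Ccdc153, Dynlrb2, Cfap44, Cfap100, Dnah6, Dnah7a, Dnah7b, Dnah7c, Dnaic2 and Rsph3b, against 1.13% of the tested genes. A match is a description of the letters and not evidence that a factor binds.

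Several libraries stood apart before any comparison. On the log2 scale, no library of the 7 with the deletion exceeded 2.33 for Lilrb4a, while the 8 intact libraries started at 2.34. In ELKO replicate 1 mouse Apoe stood at 10.90, and elsewhere (14 libraries) between 5.92 and 6.37, so that library went against its knock-in label. Foxj1 itself, the likeness of the 56 genes to it and the counts of genes past a threshold in the comparisons with ELKO are also given without that library. Ttr, the main choroid plexus transcript, was 13.71 in 5EL replicate 1 and 14.66 in ELKO replicate 2, and 7.72 to 10.31 in the others. The study lists read totals for 5EL and 5ELKO, but the values used here are not counts, so the number of reads behind a single value is unknown. It also lists RNA integrity numbers for these groups, the lowest of them in 5ELKO samples, and their part in the values was not tested. The libraries are taken to come from separate mice, and where this does not hold the p-values measure technical spread.

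The name and the floor chose these genes, so their own levels are no check of the label. The mean log2 level of 9 ependymal markers outside the 56 ran from 5.79 to 6.50 over the libraries. Foxj1 (chr11:116330704-116335399, minus strand, GRCm38), the regulator of the motile cilia program, had a mean log2 value of 8.24. Per kilobase of exon, on the linear scale, its level of 118.9 was above those of Tmem212 at 107.0, Ccdc190 at 101.2, Dynlrb2 at 72.5, Ccdc153 at 71.6 and Map3k19 at 26.3. Dynein heavy chains are encoded by long transcripts and were lower per kilobase: the 10 inner arm genes ran from 1.85 for Dnah14 to 17.1 for Dnah1. Among the 7 outer arm genes the level per kilobase ran from 0.791 for Dnah8, an outer arm chain known from sperm, to 36.9 for Dnaic1, an intermediate chain. The 8 radial spoke genes ran from 3.44 for Rsph14 to 93.3 for Rsph1, a spoke head protein. The 25 other Cfap genes ran from 3.15 for Cfap58 to 511.0 for Cfap36 on the same scale. Cfap20 at 129.9 and Cfap97 at 122.8 came next after Cfap36, above all others of the 56. Rsph3a and Rsph3b, and likewise Dnah7a, Dnah7b and Dnah7c, are close copies, and how their shared reads were divided is uncertain.

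The 56 genes varied more between libraries than most genes did. Their median SD over the 15 libraries was 0.189 log2, against 0.0919 over all genes tested, and without ELKO replicate 1 these were 0.194 and 0.0923. At means of 6 to 8 the medians were 0.264 for 26 of the genes and 0.111 for all 3254 tested genes, and at means of 4 to 6 they were 0.185 for 19 genes and 0.0921 for 2433. These SDs span all groups and describe spread, with no test. The largest SDs were those of Dnah6 (0.55), Ccdc153 (0.52), Rsph4a (0.44), Cfap54 (0.43) and Dnah9 (0.42). The smallest were those of Dnah17 (0.05), Cfap97 (0.06), Rsph6a (0.06), Rsph3b (0.08) and Rsph14 (0.08).

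The spread ran along the same libraries for most of the genes. EL replicate 3 held the lowest value for 29 genes, ELKO replicate 3 for 11 and 5EL replicate 4 for 8, which is 48 of the 56. 5ELKO replicate 3 held the highest value for 19 genes, ELKO replicate 2 for 11 and 5EL replicate 3 for 8. The median deviation from a gene's own mean was -0.30 in EL replicate 3, -0.24 in ELKO replicate 3 and -0.21 in 5EL replicate 4, against 0.25 in 5ELKO replicate 3 and 0.25 in ELKO replicate 2. The 3 low libraries belonged to 3 different genotype groups. Since this is bulk tissue, fewer ciliated cells and less RNA per ciliated cell cannot be told apart.

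**Figure D1:**
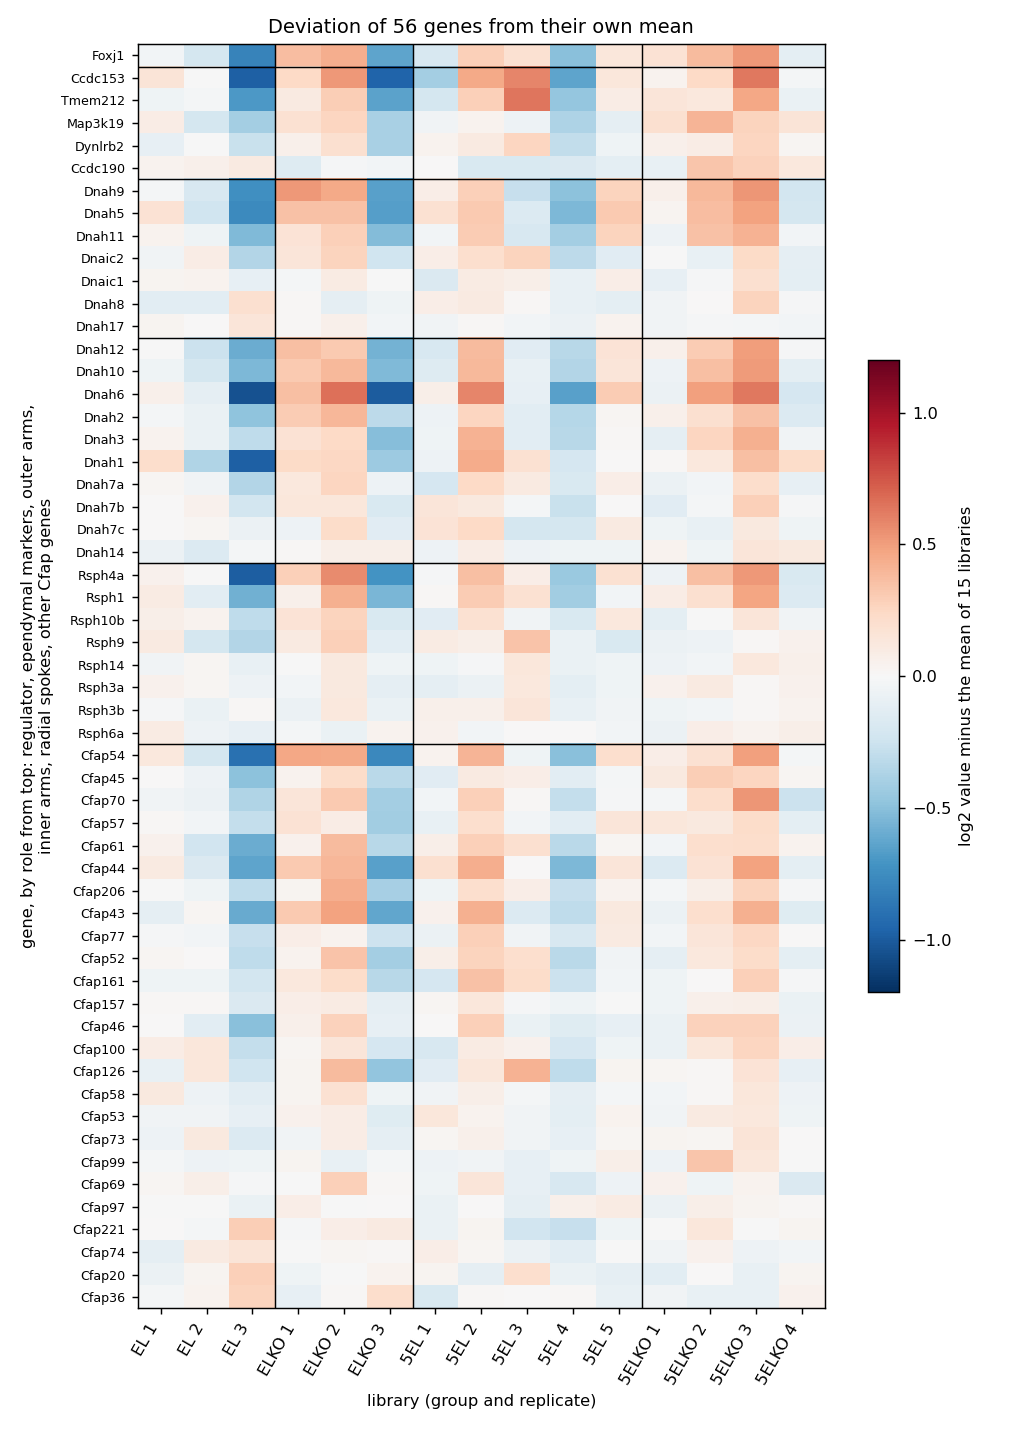
Deviation of each of the 56 genes (rows, by role) from its own mean over 15 libraries (columns, by group), in log2 units from blue (lower) to red (higher). EL replicate 3, ELKO replicate 3 and 5EL replicate 4 were mostly blue in all roles. At the ends of their blocks some genes did not follow. Cfap36 was above its mean in each of these libraries, Cfap20 and Cfap74 in EL replicate 3 and ELKO replicate 3, and Ccdc190 in EL replicate 3.

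Foxj1 itself was 8.20, 8.02 and 7.44 in EL replicates 1 to 3 and 8.61, 8.67 and 7.60 in ELKO replicates 1 to 3. It was 8.04, 8.53, 8.42, 7.73 and 8.37 in 5EL replicates 1 to 5 and 8.41, 8.62, 8.76 and 8.12 in 5ELKO replicates 1 to 4. The 4 groups overlapped, and the lowest values were in EL replicate 3 and ELKO replicate 3. By group the mean was 7.89 ± 0.40 in EL (SD, n = 3), 8.22 ± 0.33 in 5EL (n = 5), 8.29 ± 0.60 in ELKO (n = 3) and 8.48 ± 0.28 in 5ELKO (n = 4). Neighbours in that order overlapped in range. Two-sided exact permutation tests of the 4 pairwise comparisons gave p = 0.262 for 5ELKO against 5EL, 0.40 for ELKO against EL, 0.268 for 5EL against EL and 0.629 for 5ELKO against ELKO, and the Benjamini-Hochberg adjusted values were 0.533 or more. The smallest p these designs allow is 0.00794, 0.10, 0.0179 and 0.0286 in the same order, so ELKO against EL could not reach 0.05. Without ELKO replicate 1 the ELKO mean was 8.13 ± 0.76 (SD, n = 2), and the exact permutation p was 0.70 against EL and 0.467 for 5ELKO against ELKO, where the smallest possible values are 0.10 and 0.0667.

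Most of the genes followed Foxj1 across the 15 libraries. Pearson's r with Foxj1 was 0.8 or more for 30 of the other 55 genes, between 0.5 and 0.8 for 11, and under 0.5 for 14. The median r was 0.83, against 0.01 for the 17656 tested genes outside the 56, of which 282 (1.60%) reached 0.8. These are descriptions across libraries, and the genes of one library share its tissue dissection and depth. With each group's mean removed the median was 0.85 and 33 genes reached 0.8. Without the 2 libraries farthest from the median of Foxj1, EL replicate 3 and ELKO replicate 3, the median was 0.73 and 21 genes reached 0.8. Without ELKO replicate 1 the median was 0.82 and 31 genes reached 0.8, against 1.65% of the other tested genes.

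By role, the inner arm heavy chains Dnah12 (r = 0.95) and Dnah10 (0.95), the spoke head genes Rsph4a (0.96) and Rsph1 (0.95), and Cfap54 (0.95), a protein of the central apparatus, were closest to Foxj1. The outer arm heavy chains of airway and brain cilia, Dnah9, Dnah5 and Dnah11, stood at 0.92, 0.92 and 0.91. Dnah8 and Dnah17, the outer arm heavy chains known from sperm, stood at 0.08 and -0.15, but at 0.46 and 0.47 without the 2 extreme libraries, EL replicate 3 and ELKO replicate 3. Among the named markers, Ccdc153 was at 0.94, Tmem212 at 0.91, Map3k19 at 0.88 and Dynlrb2, a light chain of the roadblock type, at 0.88, but Ccdc190 at 0.08. The 5 negative values were those of Cfap36 (-0.70), Cfap20 (-0.49), Cfap74 (-0.26), Dnah17 and Cfap221 (-0.15). Without the same 2 libraries Cfap36 stood at -0.24 and Cfap20 at -0.10, while Cfap74 turned to 0.13 and Cfap221 to 0.57, so most of these negative values rest on those libraries.

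The genes outside the 56 with the highest r to Foxj1 over the 15 libraries were Ak7 (0.98), Cdhr3 (0.98), Cdhr4 (0.98), Maats1 (0.97), Kif19a (0.96), 2410004P03Rik (0.96), Iqcg (0.95), Fam216b (0.95), Tcte1 (0.95) and Iqca (0.94). Their Spearman's rho with Foxj1 lay between 0.89 for Iqca and 0.98 for Cdhr3. Ak7 encodes an adenylate kinase of motile cilia, and Kif19a a kinesin that limits the length of motile cilia.

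The values of Ccdc153, an ependymal marker, show the span of the program. In EL replicates 1 to 3 they were 7.26, 7.10 and 6.13, and in ELKO replicates 1 to 3 they were 7.35, 7.63 and 6.14. In 5EL replicates 1 to 5 they were 6.70, 7.56, 7.70, 6.47 and 7.24, and in 5ELKO replicates 1 to 4 they were 7.15, 7.35, 7.74 and 7.09. The 3 libraries that were low for Foxj1 were again the lowest, and the groups overlapped. Dnah6, an inner arm heavy chain, ran from 6.18 in EL replicate 3 to 7.90 in ELKO replicate 2.

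**Figure D2:**
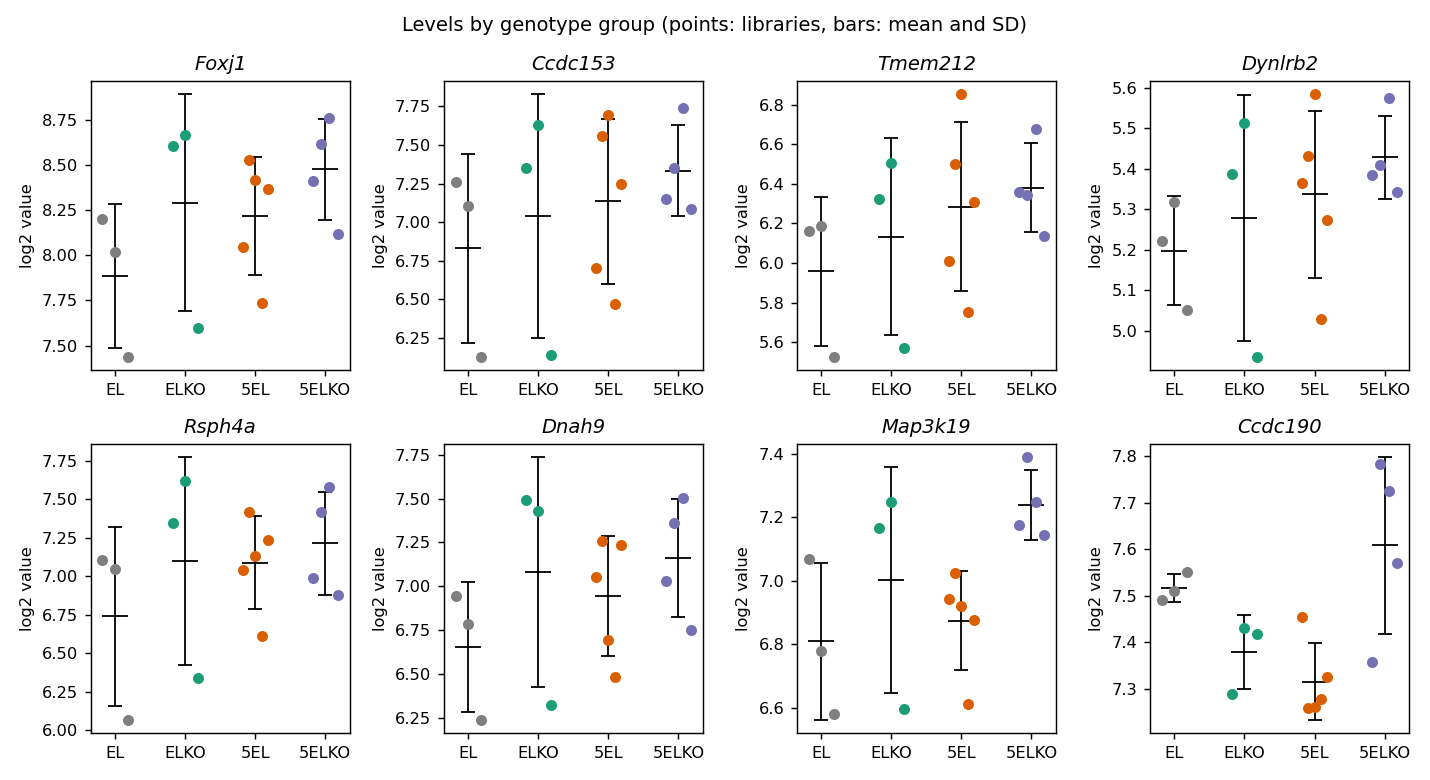
Log2 values of 8 of the genes in the 4 genotype groups, with points for libraries and bars for the group mean and SD (EL n = 3, ELKO n = 3, 5EL n = 5, 5ELKO n = 4). Foxj1 and 5 genes that followed it have a low point in EL, ELKO and 5EL, Map3k19 lies higher in every 5ELKO library than in any 5EL library, and Ccdc190 orders the groups differently.

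Levels of marker lists that hold none of the 56 genes were set beside Foxj1 over the 15 libraries, with permutation tests of 100000 resamples adjusted over 15 relations. The mean of 9 other ependymal markers followed Foxj1 (r = 0.94, rho = 0.93, permutation p = 1e-05 for both, the smallest possible, adjusted p = 7.5e-05), with r = 0.88 without the 2 libraries farthest from the list's median. The mean of 53 other motile axoneme genes had r = 0.97 and rho = 0.97 (permutation p = 1e-05 for both, adjusted p = 7.5e-05), and r = 0.94 without the 2 farthest libraries. For 9 dynein assembly factors r was 0.85 (rho = 0.89, permutation p = 5e-05 and 4e-05) and 0.78 without the 2 farthest libraries. For 8 regulators of multiciliated cells r was 0.85 (rho = 0.82, permutation p = 5e-05 and 0.00041) and 0.79 without them. For 26 genes of intraflagellar transport and the primary cilium, which most cells carry, r was 0.58 (rho = 0.67, permutation p = 0.0228 and 0.00783, adjusted 0.038 and 0.0196).

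Lists that mark other parts of the ventricle's surroundings differed in their relation to Foxj1. The habenula, which borders the third ventricle above the thalamus, was represented by 6 genes, and r was 0.73 (rho = 0.70, permutation p = 0.00194 and 0.00528, adjusted 0.00582 and 0.0158). Without the 2 farthest libraries that r was 0.61. For 4 tanycyte genes, which mark the non-ciliated cells of the ventricle wall, r was -0.21 (rho = -0.36, permutation p = 0.445 and 0.181), and for 6 hypothalamic genes it was 0.50 (rho = 0.51, permutation p = 0.0539 and 0.0525). Without ELKO replicate 1, r was 0.96 for the ependymal list, 0.97 for the other axoneme genes, 0.73 for the habenula and -0.29 for the tanycyte genes. The habenula's mean log2 level ran from 6.84 to 8.30 in EL, 7.27 to 8.78 in ELKO, 7.23 to 9.07 in 5EL and 7.69 to 8.47 in 5ELKO, and its summed linear level from 732.0 to 2174, 1024 to 3106, 1025 to 3713 and 1421 to 2474 in the same order. Thalamic neuron genes had r = -0.67 (rho = -0.61, permutation p = 0.00591 and 0.0173). Without the 2 farthest libraries r was -0.50 (permutation p = 0.0811), so that relation rests in part on those libraries. The summed linear level of the 6 thalamic genes was 54615 to 69576 in EL, 48073 to 57802 in ELKO, 44179 to 54122 in 5EL and 46156 to 54472 in 5ELKO. The part of these tissue markers in the spread of the cilia genes was not tested.

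Over all 15 libraries the mean level of the 17 choroid plexus genes had r = 0.27 with Foxj1 (rho = 0.56, permutation p = 0.346 and 0.0315, adjusted 0.399 and 0.0473). On this list 5EL replicate 1 and ELKO replicate 2 lay far above the rest. In the 13 libraries other than these, r was 0.79 (rho = 0.63, permutation p = 0.00135 and 0.0251, not adjusted). Without EL replicate 3 and ELKO replicate 3 as well, r was 0.51 (permutation p = 0.113), so the relation rests in part on those libraries. The summed linear level was 5874 to 7228 in EL, 6691 to 53851 in ELKO, 6804 to 35108 in 5EL and 6574 to 8363 in 5ELKO, with the 2 highest values in those 2 libraries. Foxj1 was 8.04 in 5EL replicate 1, below its mean over all libraries, and 8.67 in ELKO replicate 2. All 17 genes were above the floor, and their part in the levels of the cilia genes was not tested beyond the covariate given with the comparisons.

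**Figure D3:**
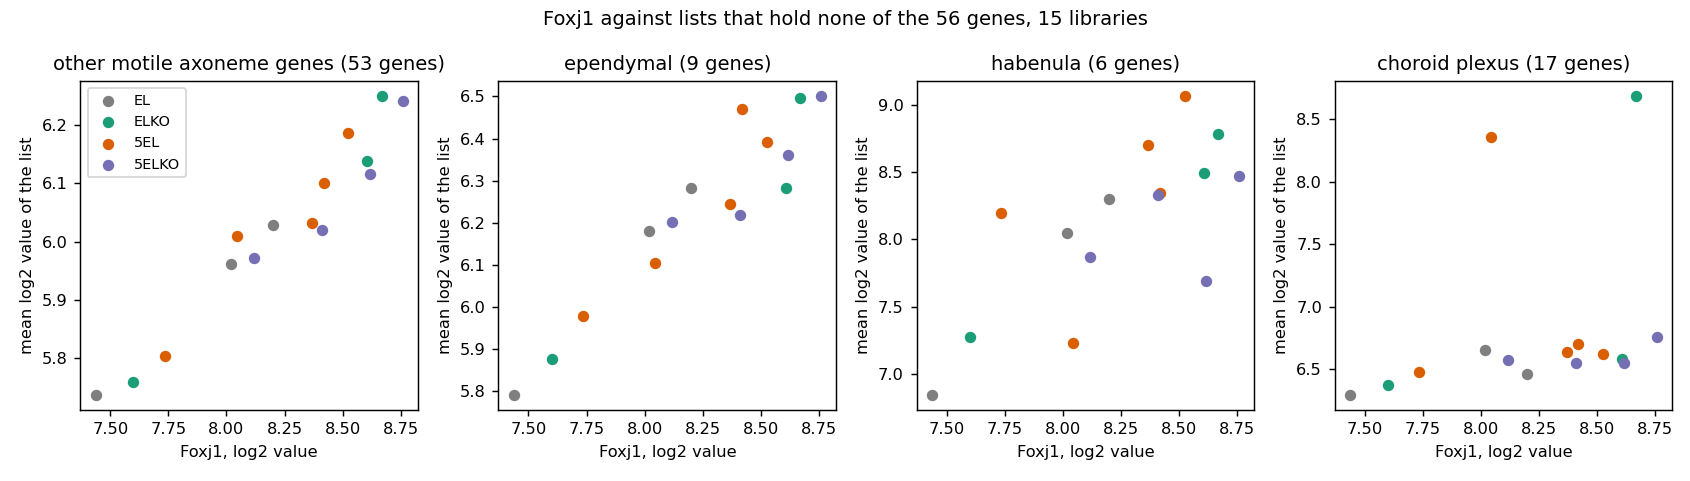
Foxj1 (x axis, log2 value) against the mean log2 value of 4 lists (y axis) in 15 libraries coloured by genotype group; none of the lists holds any of the 56 genes. The axoneme and ependymal lists rose along with Foxj1, the habenula list did so with more scatter, and 2 libraries lay far above the rest on the choroid plexus list.

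The first comparison asked what loss of Lilrb4a does in the amyloid-bearing thalamus. Between 5ELKO and 5EL, Map3k19 and Ccdc190 rose in 5ELKO, and the remaining 54 genes did not pass the study's threshold of a nominal p under 0.05 and a fold over 1.2. These 2 of 56 compare with 0.226% of all genes tested. At a nominal p under 0.05 alone there were 4 genes, all higher in 5ELKO, against 2.68% of all genes. None of the 56 had an adjusted p under 0.05 in limma (0.0169% of all genes did), and the smallest was 0.663. The difference was positive for 44 of the 56 genes, against 50.8% of all genes, and its median was 0.07 log2, against 0.00 over all genes. That median was 0.02 without 5EL replicate 4, 0.02 without 5ELKO replicate 3 and 0.12 without 5EL replicate 2.

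Map3k19 (chr1:127815253-127855031, minus strand, GRCm38), a kinase gene used as an ependymal marker, was 7.18, 7.39, 7.25 and 7.14 in 5ELKO replicates 1 to 4. In 5EL replicates 1 to 5 it was 6.94, 7.02, 6.92, 6.61 and 6.88, so that every 5ELKO library lay above every 5EL library. It was the only one of the 56 genes with that separation, which 0.666% of all genes showed. The log2 difference was 0.36 (SE 0.08, limma adjusted p = 0.663). In the groups without 5xFAD it was 7.07, 6.78 and 6.58 in EL and 7.17, 7.25 and 6.60 in ELKO.

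Ccdc190 (chr1:169928648-169934653, plus strand, GRCm38) was 7.36, 7.78, 7.72 and 7.57 in 5ELKO replicates 1 to 4 and 7.45, 7.26, 7.26, 7.28 and 7.33 in 5EL replicates 1 to 5. The groups overlapped, since 5ELKO replicate 1 lay below 5EL replicate 1. The log2 difference was 0.29 (SE 0.08, limma adjusted p = 0.999). Of its exon bases 35.8% are shared with Gm15852, and since reads were counted without strand the reads of these genes cannot be told apart there.

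Cfap45, a protein inside the doublet microtubules, differed by 0.19 log2 (SE 0.07, limma adjusted p = 0.999), and Cfap221, a protein of the central apparatus, by 0.16 (SE 0.07, limma adjusted p = 0.999). Both were under the fold threshold. Foxj1 differed by 0.26 log2 in the same fit (SE 0.16). The medians by role were 0.20 for the 5 ependymal markers, 0.13 for the inner arms, 0.05 for the outer arms, 0.03 for the spokes and 0.05 for the other Cfap genes. Without 5ELKO replicate 2, and likewise without 5ELKO replicate 3, 1 gene passed the threshold in place of 2, against 0.254% and 0.260% of all genes.

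Beside these values, 8 of the 10 hepatocyte genes were past the threshold and higher in 5ELKO, 2 of them at an adjusted p under 0.05. Their summed linear level was 391.3 to 610.9 in 5ELKO and 251.5 to 316.2 in 5EL. In the groups without 5xFAD it was 257.6 to 726.9 in EL and 247.0 to 289.6 in ELKO. None of the 17 choroid plexus genes and none of the 6 habenula genes passed, and every difference was negative, with medians of -0.33 and -0.21 log2. Among the 53 other axoneme genes none passed, and 39 had a positive difference, with a median of 0.07.

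**Figure D4:**
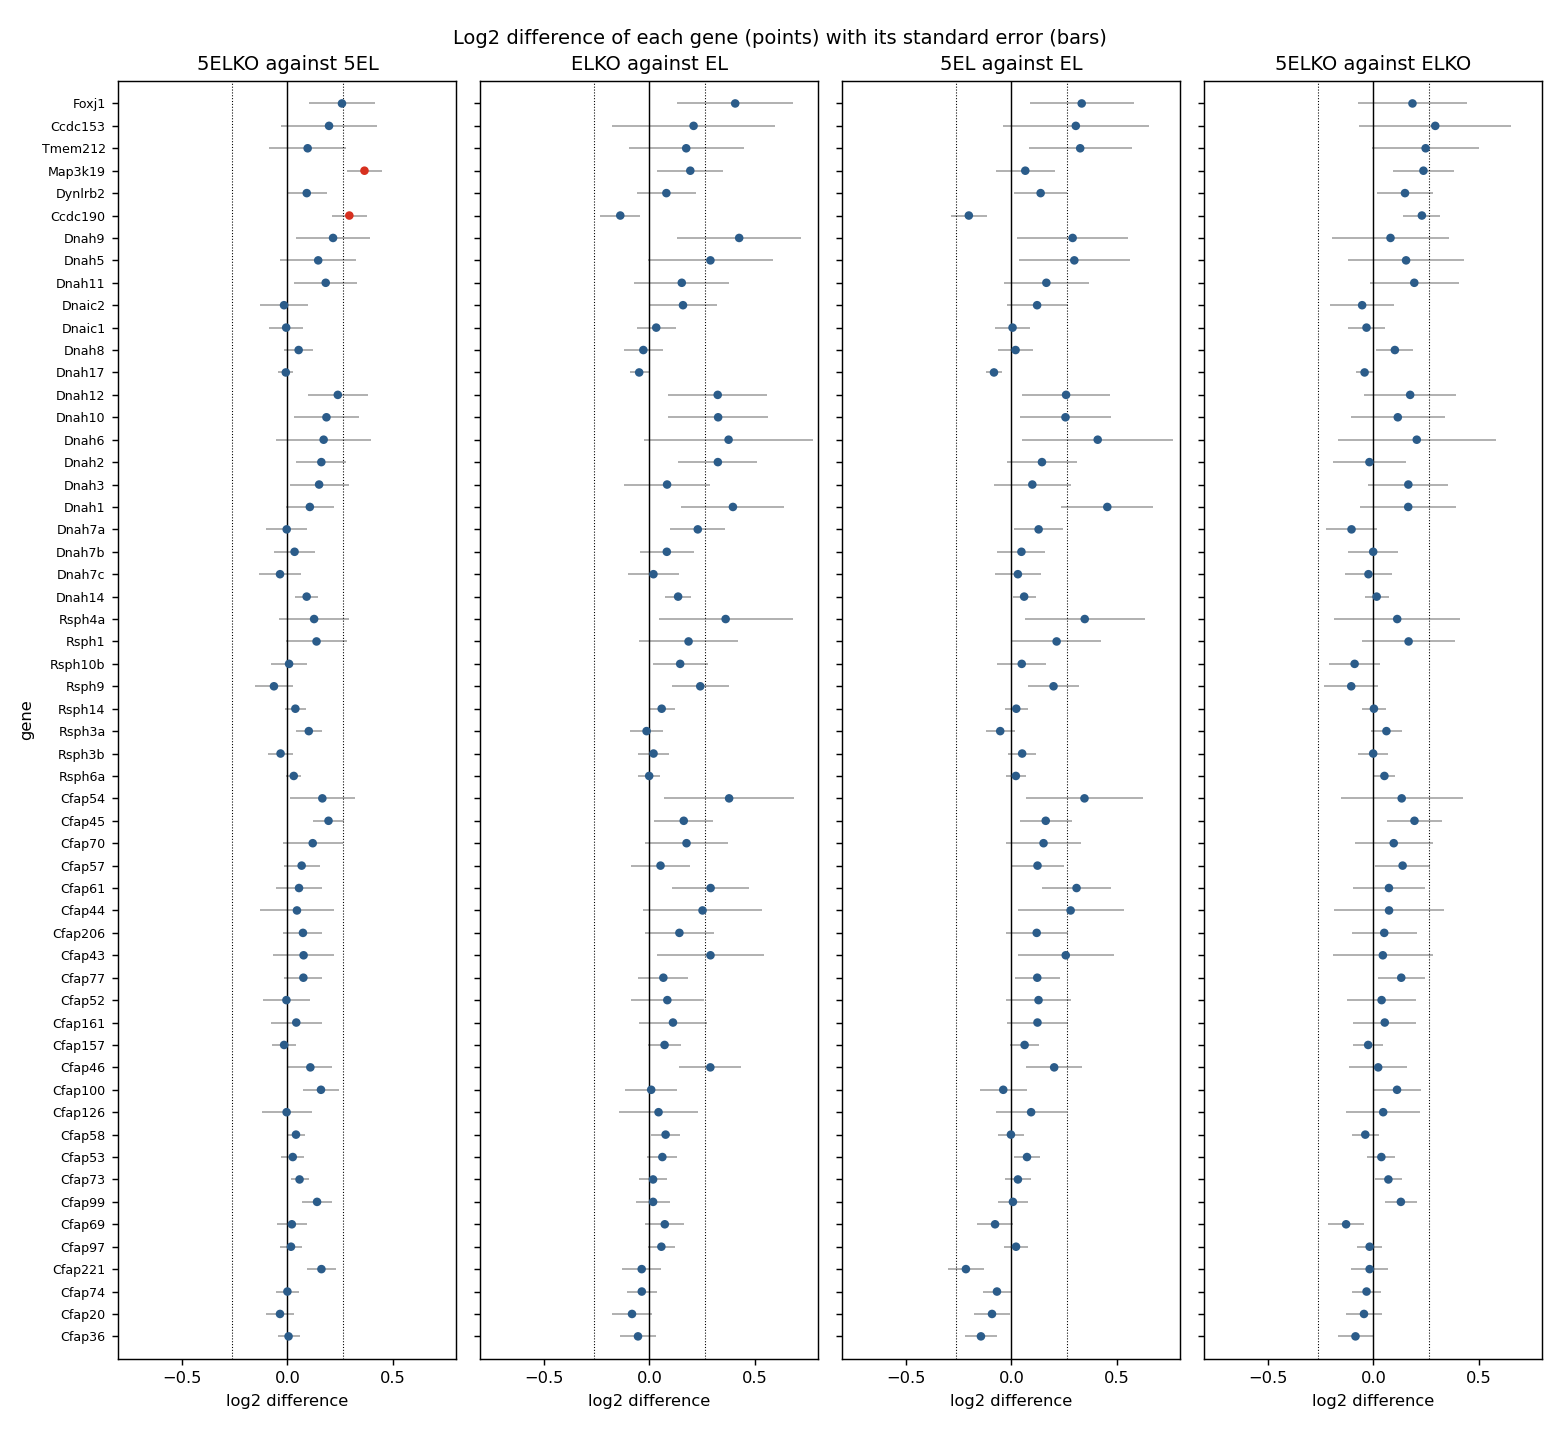
Log2 difference of each of the 56 genes (points) with its standard error (bars) in the 4 pairwise comparisons, with dotted lines at a fold of 1.2 and red points for a nominal p under 0.05 together with that fold. Red points occur in 5ELKO against 5EL alone, for Map3k19 and Ccdc190, while most points lie to the right of 0 in every panel.

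The second comparison put the same deletion in mice without 5xFAD. Between ELKO and EL none of the 56 genes passed the threshold in limma (0.497% of all genes did), 1 gene had a nominal p under 0.05 (2.59% of all genes) and none an adjusted p under 0.05 (0% of all genes). That gene was Dnah14, a less studied dynein heavy chain, with a log2 difference of 0.14 (SE 0.06, limma adjusted p = 0.999). The difference was positive for 47 of the 56 genes, against 51.3% of all genes, with a median of 0.10 log2. That median was 0.02 without ELKO replicate 2, 0.03 without EL replicate 3, 0.28 without ELKO replicate 3 and 0.07 without ELKO replicate 1. Dnah9, Foxj1, Dnah1 and Rsph4a had differences of 0.42, 0.41, 0.40 and 0.36 log2, with SEs of 0.29, 0.27, 0.24 and 0.32.

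Libraries of EL and ELKO that carry the same replicate number deviated from their group means in the same direction, but EL and ELKO libraries numbered 1 and 2 also did so across numbers, and only replicate 3 was set apart. The fit with that number as a block used the 6 EL and ELKO libraries alone, while the fit without it used all 15. Without a block those 6 libraries gave 0 of the 56 genes past the threshold, against 0.260% of all genes. With the block, 13 of the 56 genes passed the threshold, all higher in ELKO, against 1.67% of all genes. At a nominal p under 0.05 there were 14, against 6.85% of all genes, and at an adjusted p under 0.05 there were again none (0% of all genes), the smallest being 0.707. The 13 were Foxj1, the inner arm genes Dnah1, Dnah2, Dnah6, Dnah10 and Dnah12, the outer arm genes Dnah5 and Dnah9, the spoke gene Rsph4a, and Cfap43, Cfap46, Cfap54 and Cfap61. Foxj1 differed by 0.41 log2 with an SE of 0.10 (limma adjusted p = 0.707), and its ELKO library was higher by 0.41, 0.65 and 0.16 in pairs 1, 2 and 3. Rsph4a differed by 0.36 (SE 0.09), with pair differences of 0.24, 0.57 and 0.27.

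In all 3 pairs the ELKO library was the higher for 25 of the 56 genes, against 14.9% of all genes, and the lower for 2, Ccdc190 and Cfap36. Without pair 1, which holds the ELKO library with mouse Apoe, 15 genes passed the threshold, in a fit with 1 residual degree of freedom in which 6.26% of all genes did. Without pair 3, which holds the libraries with the lowest Foxj1, 12 passed, against 1.60% of all genes and again with 1 residual degree of freedom. In the fit without a block, leaving out ELKO replicate 1 gave 0 genes past the threshold, against 0.531% of all genes. Leaving out EL replicate 1 gave 4, against 5.22% of all genes, and leaving out ELKO replicate 3 gave 20, against 3.90%. With EL replicate 3 and ELKO replicate 3 left out together it was 8, against 0.881%.

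Other markers differed between the same pairs. In the blocked fit 5 of the 6 habenula genes and 2 of the 17 choroid plexus genes were past the threshold and higher in ELKO, and 2 of the 6 thalamic neuron genes were lower. In the fits with and without the block 3 of the 5 erythroid genes were past the threshold and lower in ELKO, with log2 differences of -1.58 for Hbb-bs, -1.52 for Hba-a1 and -0.28 for Alas2. The summed linear level of the 5 was 148.7 to 695.4 in EL and 111.5 to 123.3 in ELKO. Gfap, an astrocyte gene, and Oxt, a hypothalamic gene, were past the threshold and higher in ELKO in the blocked fit and not in the other, with log2 differences of 0.54 and 0.95. The part of these markers in the differences of the cilia genes was not tested beyond the covariates that follow. With the mean habenula level as a covariate in the fit without a block, the difference of Foxj1 was 0.20 (SE 0.18) in place of 0.41, and the median of the 56 genes was 0.03 in place of 0.10. With the choroid plexus level as a covariate these were 0.30 (SE 0.29) and 0.04.

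The third comparison asked what the 5xFAD transgenes do with Lilrb4a intact. Between 5EL and EL none of the 56 genes passed the threshold, against 2.18% of all genes. At a nominal p under 0.05 there were 2, against 7.45% of all genes, and at an adjusted p under 0.05 none (0% of all genes). Cfap221 differed by -0.22 log2 (SE 0.08, limma adjusted p = 0.657) and Ccdc190 by -0.20 (SE 0.08, limma adjusted p = 0.657). Cfap221 was 5.85, 5.83 and 6.15 in EL replicates 1 to 3 and 5.77, 5.89, 5.62, 5.57 and 5.80 in 5EL replicates 1 to 5. Without EL replicate 3 and ELKO replicate 3 its difference was -0.11 (SE 0.08). The difference was positive for 46 of the 56 genes, against 50.3% of all genes, with a median of 0.12 log2. The count was 4 without EL replicate 1 (8.15% of all genes), 2 without 5EL replicate 4 (2.25%), 1 without EL replicate 2 (2.26%) and 1 without ELKO replicate 3 (2.44%). The median was 0.01 without EL replicate 3, alone or with ELKO replicate 3, 0.07 without 5EL replicate 2, and 0.00 with the habenula level as a covariate. Of the habenula genes 1 of 6 was past the threshold and higher in 5EL, as was 1 of 5 astrocyte genes, and 3 of 6 thalamic neuron genes and 2 of 5 erythroid genes were lower. The largest log2 difference in the astrocyte list was 1.35. These comparisons share libraries and do not stand as independent evidence of each other.

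The fourth comparison asked the same of mice without Lilrb4a. Between 5ELKO and ELKO none of the 56 genes passed the threshold, against 0.356% of all genes. At a nominal p under 0.05 there was 1, against 2.57% of all genes, and at an adjusted p under 0.05 none (0% of all genes). Ccdc190 was that gene, with a log2 difference of 0.23 (SE 0.09, limma adjusted p = 0.999), and it was 7.29, 7.43 and 7.42 in ELKO replicates 1 to 3. Without ELKO replicate 1 the difference was 0.18 (SE 0.10) and its nominal p was over 0.05. The difference was positive for 38 of the 56 genes, against 50.1% of all genes, with a median of 0.06 log2, and over single libraries left out it ran from -0.08 (without ELKO replicate 3) to 0.17 (without ELKO replicate 2), with -0.01 without 5ELKO replicate 3. With the choroid plexus level as a covariate 2 genes passed the threshold (0.440% of all genes), as did 2 without ELKO replicate 2 (0.497%) and 1 without 5ELKO replicate 1 (0.361%), and without ELKO replicate 1 none did (0.943%). Of the hepatocyte genes 7 of 10 were past the threshold and higher in 5ELKO, as was 1 of 5 astrocyte genes. The largest log2 difference in the astrocyte list was 0.81.

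The interaction set the difference made by the deletion under 5xFAD against that in mice lacking 5xFAD. Of the 56 genes 1 passed the threshold, against 1.1% of all genes, and 1 had a nominal p under 0.05, against 3.05%, with none at an adjusted p under 0.05 (0% of all genes). The gene was Ccdc190, with an interaction of 0.43 log2 (SE 0.12, limma adjusted p = 0.9997). Its deletion difference was 0.29 with 5xFAD and -0.14 without, and its values in EL replicates 1 to 3 were 7.49, 7.51 and 7.55. Without ELKO replicate 1 the interaction was 0.39 (SE 0.13). The count was 2 without EL replicate 1 (4.5% of all genes) and 2 without ELKO replicate 3 (3.19%), and 1 without ELKO replicate 1 (1.21%). Rsph9, a spoke head gene, had an interaction of -0.30 (SE 0.18), Cfap221 one of 0.20 (SE 0.12) and Foxj1 one of -0.15 (SE 0.35). The interaction was positive for 19 of the 56 genes, against 49.5% of all genes, with a median of -0.05 log2. The sign of that median turned when 1 library was left out, to 0.02 without EL replicate 3 and 0.04 without ELKO replicate 2, and it was -0.17 without ELKO replicate 3 and -0.01 without ELKO replicate 1. Of the hepatocyte genes 9 of 10 were past the threshold with a positive interaction, as were 2 of 5 erythroid genes, and 2 of 17 choroid plexus genes were with a negative one. The mean log2 level of the 10 hepatocyte genes was highest of all libraries in EL replicate 1, at 5.42, against 4.53 and 4.51 in EL replicates 2 and 3.

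With the 4 groups tested at once by limma's moderated F, 2 of the 56 genes had a nominal p under 0.05, against 3.22% of all genes, and none had an adjusted p under 0.05 (0% of all genes). They were Ccdc190 (limma adjusted p = 0.999) and Map3k19 (limma adjusted p = 0.999). The count was 9 without ELKO replicate 3 (4.56% of all genes), 4 without 5EL replicate 2 (3.22%), 4 without EL replicate 1 (10.3%), 1 without 5ELKO replicate 3 (2.42%), 1 without EL replicate 3 (1.96%) and 2 without ELKO replicate 1 (3.94%). Of the 30 genes that followed Foxj1 at an r of 0.8 or more, Map3k19 alone was among them, and Ccdc190 was not one of the 30.

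Of the 53 other axoneme genes none was past the threshold in any of the 4 pairwise comparisons without a block, and 3 were in the blocked fit of ELKO against EL, all higher in ELKO. Of 9 dynein assembly factors and 8 regulators of multiciliated cells none passed in these fits or in the interaction. Of 26 genes of intraflagellar transport and the primary cilium 1 passed in ELKO against EL, lower in ELKO, and 1 in 5EL against EL, lower in 5EL. In the blocked fit 1 passed, lower in ELKO, and in the interaction 1 passed with a positive and 1 with a negative value. None of the 10 genes of cytoplasmic dynein, the motor of the cell body, passed in these comparisons, and Dynlrb1, the close relative of Dynlrb2 in that motor, was between 11.15 and 11.75 in all libraries.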

How the data were processed

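Bulk RNA-seq of thalamic tissue gave 15 libraries, grouped by GEO's labels, and genotypes and age came from the study's methods. The authors ran FastQC 0.11.9, Trimmomatic 0.39, HISAT2 2.2.1 (GRCm38), SAMtools 1.16.1, featureCounts 2.0.3 (paired fragments over exons, summed by gene symbol, strand ignored) and DESeq2 1.38.3. The authors deposited log2 values for 29659 genes per library, and the transform and annotation release are not given in the sources used here. The study lists read totals for 5EL and 5ELKO, which were not used here. The values are not counts, so the reads behind a single value are unknown, the values of low genes may be shrunken, and there was no count test. Further libraries that the study lists were not analysed here.

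Genes with a mean log2 value of 2 or more (17712) were fitted with limma 3.58.1 in R 4.3.3 (lmFit, eBayes with trend), with Benjamini-Hochberg adjustment over all of them. 5ELKO against 5EL was fitted on its 9 libraries and the other comparisons on all 15, and the fit with a replicate block for ELKO against EL took in only the 6 libraries concerned. The threshold was the study's, a nominal p under 0.05 and a fold over 1.2. Foxj1 was compared by exact permutation tests. The fits were tested on simulated data. Coordinates and exon overlaps came from GENCODE M21 (GRCm38), and promoter windows from RefSeq (GRCm38.p6). Levels per kilobase are the mean over the 15 libraries of 2 to the log2 value, divided by exon length in kilobases.

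Same-numbered EL and ELKO libraries had correlated deviations from their group means (r = 0.45, 0.32 and 0.74 over all genes tested). The number was used as a block, although neither the labels nor the methods say that it pairs the libraries. Correlations across numbers 1 and 2 were like those within them (0.37 for EL 1 with ELKO 2, and 0.29 for EL 2 with ELKO 1), and those of replicate 3 with the other numbers were negative, so only replicate 3 was set apart. Same-numbered 5EL and 5ELKO libraries did not deviate alike (r = -0.07, -0.24, -0.03 and 0.14).

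The genes and lists were chosen with earlier results of these data known. Genes named are the 6 spelled out, those with the smallest p in each comparison, those with the largest and smallest SD, those nearest the floor, the 10 others most like Foxj1, and genes used for checks. Some examples by role were chosen after their values were seen. Alternatives were the filter, the variance prior, recentring, a choroid plexus or habenula covariate, a block, fewer libraries in the fit, and leaving out libraries. Figures were drawn with matplotlib 3.10.9 in Python 3.11.15.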

Additional observations from a re-analysis of the deposited data

Results flagged for a closer look

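Single libraries stood apart from the rest of their group for 5 of the 56 genes, by Dixon's test of the gap to the nearest library over the range of the group. In 5ELKO the library of replicate 3 was the highest for Cfap161 (6.27, nearest 5.99, ratio 0.843) and for Dnah8 (4.67, nearest 4.40, ratio 0.867). In 5EL replicate 2 was the highest for Dnah14 (4.99, nearest 4.85, ratio 0.932). Also in 5EL, replicate 3 was the highest for Rsph14 (3.51, nearest 3.36, ratio 0.710) and for Rsph3a (7.39, nearest 7.21, ratio 0.713). These are 5 of 112 groups checked, and chance flags about 5% of them. The groups of 3 were not checked. No difference between the deletion's effects with and without 5xFAD passed an adjusted p of 0.05 for any of the 56 genes in limma.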

How the results depend on the processing

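The genes past the threshold numbered 2 in 5ELKO against 5EL, 0 in ELKO against EL, in 5EL against EL and in 5ELKO against ELKO, and 1 for the interaction. Another filter, no filter, no trend, robust estimation and recentring left each of these counts within 1.5 times. With the replicate block the count was 5 in 5ELKO against 5EL, where same-numbered libraries did not deviate alike. It was 13 in ELKO against EL, where only replicate 3 was set apart. There the block on pairs 2 and 3 only gave 15 and on pairs 1 and 2 only 12, while the same 6 libraries without a block gave 0. With the habenula covariate it was 4 in 5ELKO against 5EL and 2 for the interaction. Without EL replicate 3 and ELKO replicate 3 together it was 8 in ELKO against EL. In 5ELKO against ELKO it was 2 with the choroid plexus covariate and 2 without 5EL replicate 1 and ELKO replicate 2 together. With each library left out in turn, counts ran from 1 to 3 in 5ELKO against 5EL, 0 to 20 in ELKO against EL, 0 to 4 in 5EL against EL, 0 to 2 in 5ELKO against ELKO and 1 to 2 for the interaction, and genes under the moderated F from 1 to 9, with 9 without ELKO replicate 3. The causes were not tested. The share of all tested genes past the threshold also changed, from 0.497% in ELKO against EL to 1.67% with the block there. The counts in this section stand without that share, so a higher count alone does not set the cilia genes apart from all genes. Rsph4a had a nominal p under 0.05 in 4 of the 28 alternatives of ELKO against EL. Its smallest limma adjusted p over them was 0.0485, against 0.999 in the main fit. Foxj1 had a nominal p under 0.05 in 3 alternatives of 5ELKO against 5EL and in 5 of ELKO against EL, the block among them, with adjusted p of 0.0671 or more. In the other comparisons no alternative gave it a nominal p under 0.05. Its difference stayed positive in 5EL against EL, from 0.07 to 0.49, but its sign turned in 5ELKO against ELKO and in the interaction. In 5ELKO against ELKO it ran from -0.16 (without ELKO replicate 3, alone or with EL replicate 3) to 0.37 over single libraries left out. Its interaction of -0.15 was 0.0152 with the choroid plexus covariate and 0.161 with the habenula covariate. Over single libraries left out the interaction ran from -0.49 (without ELKO replicate 3) to 0.0766 (without EL replicate 3). The relation of Foxj1 to meningeal genes was 0.07, and -0.28 without the 2 farthest libraries, and that to astrocyte genes 0.37 and -0.30. Map3k19 in 5ELKO against 5EL, and the interaction of Ccdc190, kept their sign and a nominal p under 0.05 in all 19 and 24 alternatives, with adjusted p of 0.520 or more and of 0.546 or more. The alternatives with the extreme libraries left out together, with the habenula covariate with the pairs taken apart and with 6 libraries alone, and the values without ELKO replicate 1 for Foxj1 and its likeness, were chosen after the data had been seen.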

Other observations

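Among the remaining lists, Foxj1 had r = -0.61 with 5 erythroid genes (rho = -0.57, permutation p = 0.0120 and 0.0277, adjusted 0.0225 and 0.0473), and r = -0.25 without the 2 farthest libraries, so that relation rests on them. With 10 cytoplasmic dynein genes r was -0.63 (rho = -0.56, permutation p = 0.0114 and 0.0306), and -0.25 without the 2 farthest libraries. With 10 hepatocyte genes r was 0.30 (rho = 0.30, permutation p = 0.283 for both).

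The 15 genes with the letters GTTGCC in their promoter had a median r with Foxj1 of 0.80, and the 30 without them a median of 0.86. The 9 with the letters TGTTTA had a median of 0.90, and the 36 without them one of 0.79. These medians were not tested.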
